A study of Mus musculus with 21 samples.

Results

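The transcripts of 10 genes that shape mitochondria or carry molecules into them were followed in oocytes and granulosa cells of young, old and stem cell treated mice. They were chosen by name, as 10 of the 55335 gene identifiers in every library: Dnm1l, Mff and Fis1 for mitochondrial fission, Mfn1, Mfn2 and Opa1 for fusion, Tomm20, Timm17a and Timm17b for protein import, and Slc25a51 for the import of NAD. None of them passed the test for a change with age, with transplanted stem cells or between the cell types. Most simulated differences of 3 on a log2 scale were missed too, so real changes may have gone unseen. In the oocyte libraries with strong oocyte markers, Mff, Timm17a and Dnm1l stood highest and Tomm20 lowest. Libraries with the same label lay far apart, such as 1.93 and 63.3 FPKM for Mff in oocytes of mice given LRP1high cells.

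The study asked whether human umbilical cord mesenchymal stem cells (UC-MSCs) placed under the ovarian capsule change the ovary of old mice, and whether cells with much LRP1, a surface receptor of the low-density lipoprotein receptor family, do so differently from cells with little. All mice were female ICR mice, an outbred strain, with no transgene or deletion named. The 21 libraries came from 12 oocyte and 9 granulosa cell samples. Young mice were 6 to 8 weeks old and Aged mice, labelled old, were 18 months old. Aged + Unsorted, Aged + LRP1high and Aged + LRP1low mice were Aged mice that had received unsorted UC-MSCs, the UC-MSCs brightest for LRP1 in flow cytometry or the dimmest ones, with tissue taken about 3 weeks later. The oocyte libraries numbered 3 Young, 2 Aged, 2 Aged + Unsorted, 3 Aged + LRP1high and 2 Aged + LRP1low, and the granulosa cell libraries 1, 2, 1, 3 and 2 in the same order. The labels call them biological replicates, but how many mice or cells entered a library is not given in the sources used here. Error therefore means the spread between libraries. The Young and Aged mice had no sham operation named in the labels, so the operation and the transplanted cells cannot be told apart.

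Mitochondria divide when the GTPase Drp1, the product of Dnm1l, is recruited from the cytosol by receptors in the outer membrane and constricts the organelle. They join when mitofusins link outer membranes and Opa1 links inner membranes. Most mitochondrial proteins are made in the cytosol and enter through the TOM complex of the outer membrane and the TIM complexes of the inner one. Oocytes are known for very large numbers of small round mitochondria, which the embryo inherits.

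Levels are given in FPKM, fragments scaled to the length of the transcript and to the size of the library, so that genes of unequal length can be compared within a library. Differences are on the scale log2(FPKM + 1), where 1 is a doubling for a well expressed gene and understates the change of a gene near 0. A gene was called changed at a fold over 1.5 and a Benjamini-Hochberg adjusted p under 0.05 over all genes tested in limma, a linear model that shares information on the spread between genes. Beside the calls, the number of members is given whose 2 groups did not overlap in any library. Since these are cells in bulk, fewer cells of a type and less RNA per cell cannot be told apart.

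Several libraries went against their labels, which bears on every comparison. The estimated depth ran from 0.278 to 3.40 gigabases. The median of 10 oocyte markers (Zp1, Zp2, Zp3, Gdf9 and others) was 84.9 to 1001 FPKM in 8 oocyte libraries. It was 0.892 in Young replicate 1, 11.6 in Aged replicate 1, and 5.02 and 7.77 in the 2 Aged + LRP1low libraries. Single markers were higher in LRP1low replicate 2, with Dppa3 at 65.3, Nlrp5 at 34.0 and Gdf9 at 27.2 FPKM. Its other markers were at or below 8.35. In Aged replicate 1 the highest marker was H1foo, at 49.5 FPKM. In those 4 libraries the median of the olfactory and vomeronasal receptor genes, which these cells are not known to use, was 0.311, 2.21, 2.76 and 2.35 FPKM, against 0 to 0.0709 in the other 8. Of the granulosa cell libraries, only Young replicate 1 (74.9 FPKM) and Aged + LRP1high replicate 3 (21.4 FPKM) had a median of granulosa and cumulus markers of at least 20 FPKM. Below, a library is said to lack the markers of its cell type, or to have few, where their median was under 20 FPKM. Single markers may still be higher there. Both Aged granulosa libraries were near empty of named genes, with medians of 0.0780 and 0.203 FPKM for 10 genes that every cell uses. Granulosa Aged + Unsorted replicate 1 held oocyte markers at a median of 799.7 FPKM and correlated at r = 0.97 with Oocyte Aged + Unsorted replicate 2. One predicted gene, Gm10800, took from 17.4% to 78.1% of the FPKM sum in 5 oocyte libraries and from 6.92% to 86.6% in the 9 granulosa libraries.

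The 10 genes lie on 7 chromosomes, at GRCm38 coordinates that the deposited rows share with the GENCODE M21 annotation. The fission genes are Dnm1l (chr16:16312230-16358959, minus strand), Mff (chr1:82724890-82752394, plus strand) and Fis1 (chr5:136953275-136966234, plus strand). The fusion genes are Mfn1 (chr3:32529465-32579239, plus strand), Mfn2 (chr4:147873599-147904704, minus strand) and Opa1 (chr16:29579334-29654884, plus strand). The import genes are Tomm20 (chr8:126930667-126945844, minus strand), Timm17a (chr1:135295213-135313778, minus strand) and Timm17b (chrX:7899357-7908351, plus strand). Slc25a51 is at chr4:45395923-45408766 on the minus strand. All are protein-coding and every value is for the whole gene, over all of its exons and untranslated regions.

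Timm17a and Timm17b are paralogs that encode alternative subunits of the same inner membrane channel, and their levels can be read apart only where their sequences differ. The first 120 coding bases of each show how far this holds. They are from GENCODE transcripts on GRCm38, written 5′ to 3′ with the 28 bases that differ between the genes in capitals. With introns, the Timm17a bases span chr1:135309777-135313719 on the minus strand and the Timm17b bases chrX:7899444-7901054 on the plus strand.
Timm17a: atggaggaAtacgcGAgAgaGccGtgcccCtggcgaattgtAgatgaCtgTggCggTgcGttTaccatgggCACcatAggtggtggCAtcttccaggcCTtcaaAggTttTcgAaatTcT
Timm17b: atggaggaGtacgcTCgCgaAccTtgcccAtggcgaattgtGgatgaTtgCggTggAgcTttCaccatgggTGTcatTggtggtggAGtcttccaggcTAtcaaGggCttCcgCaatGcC
The longest run that the pair shares in this stretch is 11 bases, out of coding sequences of 513 and 516 bases. Over all their transcripts, Timm17a and Timm17b shared 27 distinct stretches of 31 bases, of 7867 in Timm17a and 2545 in Timm17b. Mfn1 and Mfn2, the other pair of paralogs, shared 0.

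The fission GTPase gene Dnm1l varied as much within labels as between them. In oocytes its FPKM was 1.90, 0.704 and 24.6 in Young, 2.13 and 28.2 in untreated Aged, 65.7 and 44.0 with unsorted cells, 25.4, 11.3 and 1.24 with LRP1high cells, and 3.83 and 2.30 with LRP1low cells. The 2 Aged + Unsorted libraries were the highest of the 12, and the 4 libraries with few oocyte markers were all at or below 3.83, as were Young replicate 2 and LRP1high replicate 3. In granulosa cells it was 22.6 in Young, 0.819 and 0 in untreated Aged, 33.5 with unsorted cells, 2.24, 0.225 and 0.263 with LRP1high cells, and 0 and 0.870 with LRP1low cells. Only the Young library and the one with unsorted cells, each alone in its group, were above 2.24.

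Mff encodes the main outer membrane receptor that recruits Drp1, and it was the highest of the 10 genes in most oocyte libraries. Its FPKM was 1.60, 5.92 and 45.1 in Young, 18.0 and 84.4 in untreated Aged, 9.16 and 92.5 with unsorted cells, 63.3, 19.8 and 1.93 with LRP1high cells, and 12.9 and 14.6 with LRP1low cells. As group means this was 17.5 ± 24.0 (SD, n = 3), 51.2 ± 46.9 (n = 2), 50.8 ± 58.9 (n = 2), 28.3 ± 31.6 (n = 3) and 13.8 ± 1.22 (n = 2), so that in 4 of the 5 groups the SD was about as large as the mean. The range of every other oocyte group overlapped with that of Young. Granulosa levels were 25.02 in Young, 0.688 and 0.904 in untreated Aged, 67.7 with unsorted cells, 3.09, 0.461 and 1.10 with LRP1high cells, and 7.78 and 0.647 with LRP1low cells.

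Fis1, a small outer membrane protein that can also recruit fission factors, was more uneven. Its oocyte FPKM was 1.21, 0 and 16.1 in Young, 4.35 and 20.2 in untreated Aged, 49.1 and 49.1 with unsorted cells, 3.45, 0.210 and 0 with LRP1high cells, and 7.58 and 2.99 with LRP1low cells. All 3 LRP1high libraries lay below both Aged libraries, and both Unsorted libraries above them. In granulosa cells it was 12.9 in Young, 0.541 and 0 in untreated Aged, 33.7 with unsorted cells, 3.54, 0 and 0.856 with LRP1high cells, and 0.643 and 0.950 with LRP1low cells. A 0 here means that the gene is listed at 0. Genes that every cell uses, such as Rplp0, Rps18 and Eef1a1, were also at 0 in some libraries, so a 0 may be a failed estimate. Of the 210 member values, 20 were 0.

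**Figure D1:**
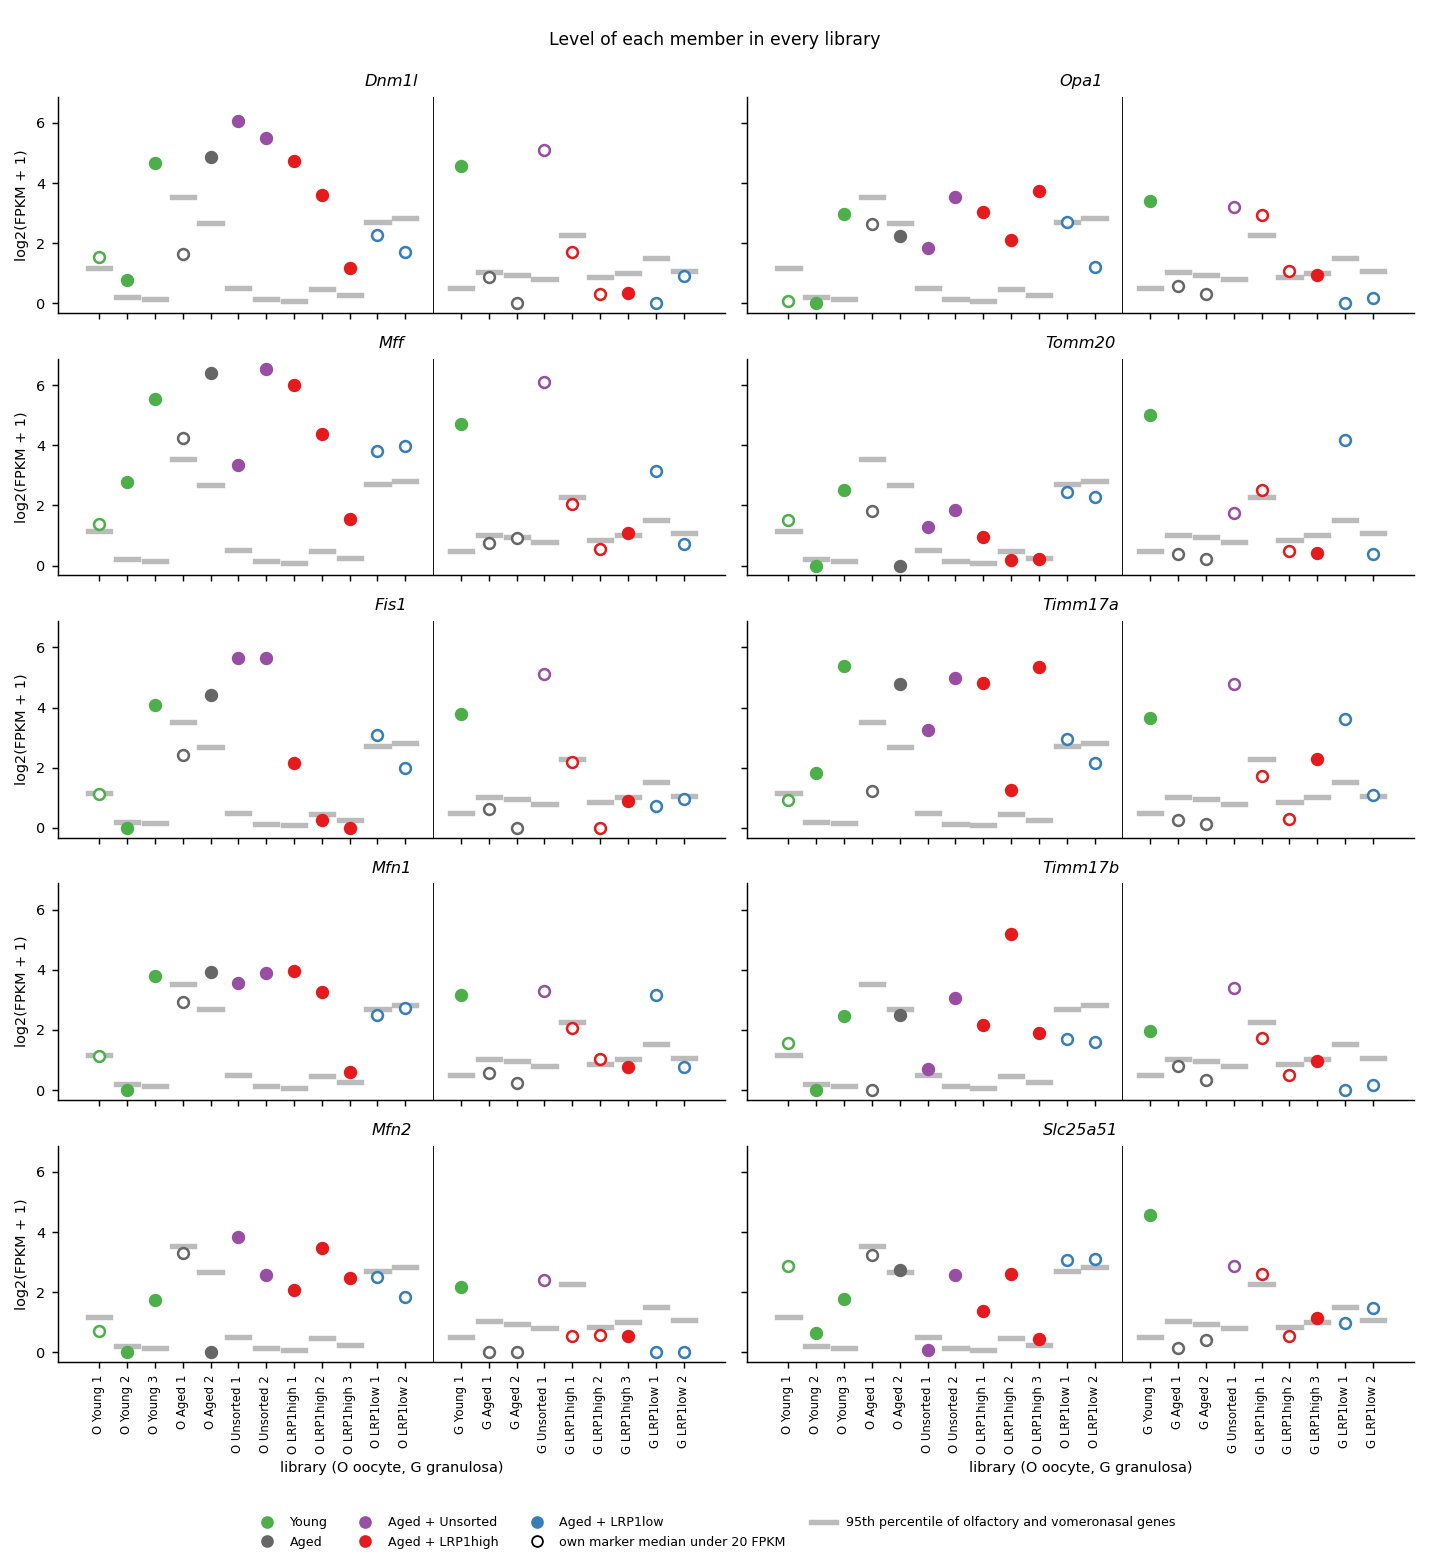
Level of each of the 10 genes as log2(FPKM + 1) on the y axis in each of the 12 oocyte (O) and 9 granulosa cell (G) libraries on the x axis, coloured by group, with open circles for libraries whose own marker median was under 20 FPKM and grey bars for the 95th percentile of the olfactory and vomeronasal receptor genes. Mff spans 1.60 to 92.5 FPKM in oocytes, and in both Aged granulosa libraries 0 of the 10 genes exceed the grey bar.

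The mitofusin gene Mfn1 encodes a protein that links outer membranes. Oocyte FPKM was 1.17, 0 and 12.9 in Young, 6.55 and 14.3 in untreated Aged, 10.8 and 14.0 with unsorted cells, 14.6, 8.71 and 0.512 with LRP1high cells, and 4.69 and 5.67 with LRP1low cells. Both Aged libraries lay inside the range of the LRP1high ones and above both LRP1low ones, and Young replicate 2 was listed at 0. Granulosa values were 7.92 in Young, 0.487 and 0.183 in untreated Aged, 8.83 with unsorted cells, 3.22, 1.06 and 0.723 with LRP1high cells, and 8.03 and 0.717 with LRP1low cells.

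Mfn2, the second mitofusin, which also tethers mitochondria to the endoplasmic reticulum, was lower in most of them. In oocytes it was at 0.648, 0 and 2.34 in Young, 8.85 and 0 in untreated Aged, 13.2 and 5.004 with unsorted cells, 3.22, 10.1 and 4.57 with LRP1high cells, and 4.67 and 2.57 with LRP1low cells. The 3 LRP1high libraries lay above the 3 Young ones, while the Aged pair enclosed the Young and LRP1low values. In granulosa cells it was 3.54 in Young, listed at 0 in both untreated Aged libraries, 4.32 with unsorted cells, 0.464, 0.482 and 0.449 with LRP1high cells, and listed at 0 in both libraries with LRP1low cells.

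Opa1, the inner membrane fusion GTPase that also holds the cristae in shape, reached at most 12.3 FPKM. Its oocyte values were 0.0569, 0 and 6.92 in Young, 5.16 and 3.69 in untreated Aged, 2.54 and 10.5 with unsorted cells, 7.16, 3.33 and 12.3 with LRP1high cells, and 5.57 and 1.31 with LRP1low cells. The Aged pair lay inside the range of each transplanted group, and the highest value of all was in LRP1high. In granulosa cells it was 9.48 in Young, 0.495 and 0.251 in untreated Aged, 8.12 with unsorted cells, 6.71, 1.08 and 0.922 with LRP1high cells, and 0 and 0.126 with LRP1low cells.

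Tomm20 encodes the receptor of the TOM complex that binds the presequences of incoming proteins. It was the lowest of the 10 in the median of the oocytes, at 1.84, 0 and 4.71 FPKM in Young, 2.55 and 0 in untreated Aged, 1.43 and 2.59 with unsorted cells, 0.929, 0.134 and 0.174 with LRP1high cells, and 4.45 and 3.85 with LRP1low cells. Both LRP1low libraries were above every Aged and LRP1high library, and they are among the 4 libraries with few oocyte markers. Their Tomm20 values were below the 95th percentile of the olfactory and vomeronasal receptor genes there. Granulosa cells had 31.2 in Young, 0.321 and 0.160 in untreated Aged, 2.35 with unsorted cells, 4.65, 0.405 and 0.341 with LRP1high cells, and 17.1 and 0.291 with LRP1low cells. In Young granulosa cells Tomm20 was thus the highest of the 10 genes.

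Timm17a, a core part of the channel that takes presequence proteins through the inner membrane, ran from 0.908 to 40.5 FPKM in oocytes. It was at 0.908, 2.53 and 40.5 in Young, 1.33 and 26.3 in untreated Aged, 8.63 and 30.6 with unsorted cells, 27.3, 1.37 and 39.8 with LRP1high cells, and 6.78 and 3.51 with LRP1low cells. The range of every other group overlapped with that of Young and with that of Aged, though both libraries with unsorted cells were above both with LRP1low cells. Granulosa values were 11.5 in Young, 0.186 and 0.0972 in untreated Aged, 26.4 with unsorted cells, 2.31, 0.235 and 3.83 with LRP1high cells, and 11.4 and 1.13 with LRP1low cells.

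Timm17b, its paralog on the X chromosome, was at 1.96, 0 and 4.55 in Young oocytes, 0 and 4.66 in untreated Aged, 0.608 and 7.37 with unsorted cells, 3.52, 35.5 and 2.72 with LRP1high cells, and 2.25 and 2.04 with LRP1low cells. The value of 35.5 in LRP1high replicate 2 stood alone, since no other library of the 21 exceeded 9.43. In granulosa cells it was 2.88 in Young, 0.756 and 0.274 in untreated Aged, 9.43 with unsorted cells, 2.32, 0.425 and 0.972 with LRP1high cells, and 0 and 0.127 with LRP1low cells.

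Slc25a51, the carrier that brings NAD into the mitochondrial matrix, was at 6.25, 0.562 and 2.44 FPKM in Young oocytes, 8.34 and 5.62 in untreated Aged, 0.0577 and 4.92 with unsorted cells, 1.60, 5.14 and 0.349 with LRP1high cells, and 7.41 and 7.64 with LRP1low cells. The 4 highest values were those of Aged replicate 1, both LRP1low libraries and Young replicate 1, which are the 4 libraries with few oocyte markers. Their part in this pattern was not tested. Granulosa values were 22.5 in Young, 0.101 and 0.327 in untreated Aged, 6.40 with unsorted cells, 5.10, 0.459 and 1.23 with LRP1high cells, and 0.990 and 1.78 with LRP1low cells.

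Over the 12 oocyte libraries the medians ran from 16.3 FPKM for Mff through 7.70 for Timm17a, 7.63 for Mfn1, 7.54 for Dnm1l, 5.03 for Slc25a51, 4.43 for Opa1 and 3.90 for both Fis1 and Mfn2 to 2.49 for Timm17b and 1.63 for Tomm20. In the 8 with oocyte markers the order was Mff (32.4), Timm17a (26.8), Dnm1l (25), Mfn1 (11.8), Fis1 (9.76), Opa1 (5.31), Timm17b (4.04), Mfn2 (3.90), Slc25a51 (2.02) and Tomm20 (0.551). Neighbours in this order did not stand apart beyond the spread of the libraries, since the ranges of all 10 genes overlapped. Even so, Mff was first in 5 of these 8 libraries, Dnm1l among the first 3 in 7, and Tomm20 among the last 3 in 6 and listed at 0 with 5 others in Young replicate 2. Across the 9 granulosa libraries the medians lay between 0.405 FPKM for Tomm20 and 2.31 for Timm17a.

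The level that unused genes reach sets a floor for these values. All 10 genes exceeded the 95th percentile of the receptor genes of the same library in Young replicate 3, Aged + Unsorted replicate 2 and Aged + LRP1high replicate 1 among the oocytes, and in Granulosa Young replicate 1 and Granulosa Aged + Unsorted replicate 1. In the 4 oocyte libraries with few oocyte markers, 5, 1, 5 and 2 of the 10 did, and in both Aged granulosa libraries 0. The summed FPKM of the 10 ran from 9.72 to 260.5 in oocytes. It was 4.39 and 2.196 in the Aged granulosa libraries, 33.6, 4.83 and 10.7 in Aged + LRP1high, and 45.9 and 6.64 in Aged + LRP1low.

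**Figure D2:**
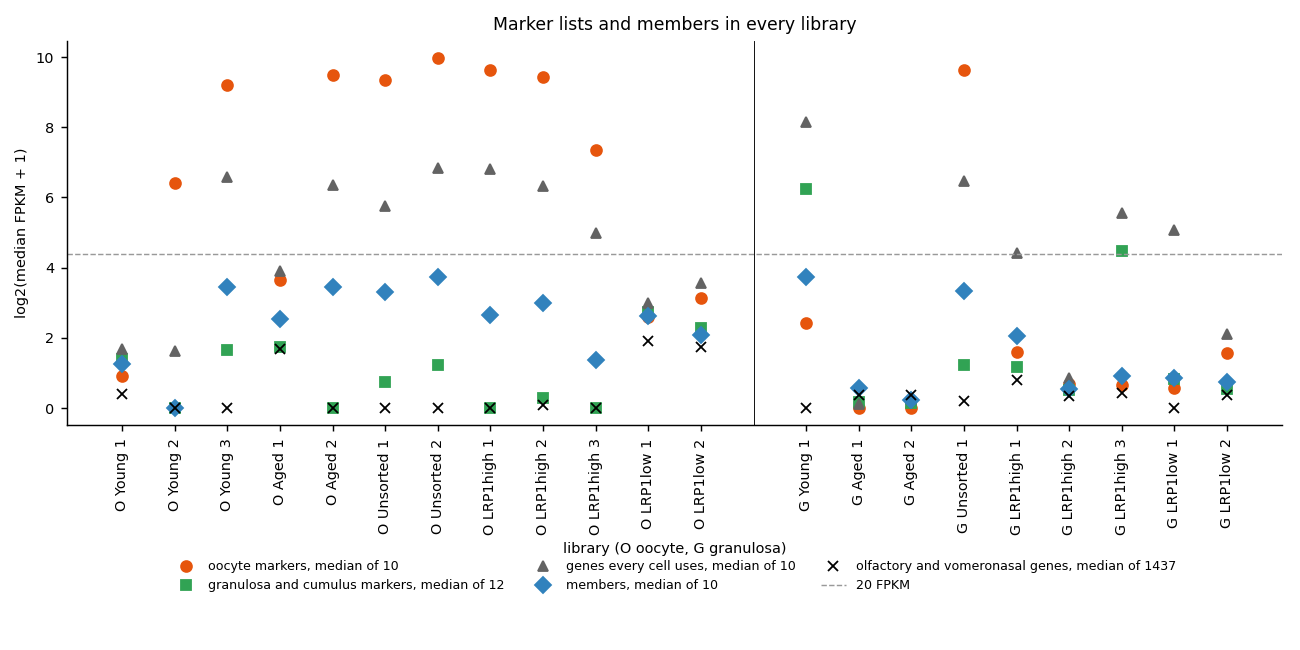
Median level, as log2(median FPKM + 1), of the oocyte markers, the granulosa and cumulus markers, the genes that every cell uses, the 10 genes described here (members) and the olfactory and vomeronasal receptor genes in each of the 21 libraries, with a dashed line at 20 FPKM. The oocyte markers lie above the line in 8 of 12 oocyte libraries, at 84.9 to 1001 FPKM, and in Granulosa Aged + Unsorted replicate 1, at 799.7 FPKM.

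Across the 12 oocyte libraries the 10 genes went with the oocyte markers to unequal degrees. On the log2 scale, Pearson's r with the mean of the 10 markers was 0.73 for Dnm1l, 0.66 for Timm17a and 0.58 for Mff, lay between 0.16 and 0.50 for Mfn1, Mfn2, Opa1, Fis1 and Timm17b, and was -0.41 for Tomm20 and -0.49 for Slc25a51. These are descriptions over libraries that differ in depth and Gm10800 content, not tests. The genes whose levels were most like the mean of the 10 were Ctnna3 (r = 0.97), Anapc15 (0.97), A530040E14Rik (0.96), Ddhd1 (0.96) and Ndel1 (0.96), again over 12 libraries.

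Pseudogene copies with shared sequence could draw reads from at least 3 of the genes. Gm14494 (chr2:153826171-153826605), a processed pseudogene of 435 bases, has 343 of its 405 stretches of 31 bases in common with Tomm20, or 84.7%. Its FPKM was 75.2 in Granulosa Aged + LRP1low replicate 1, where Tomm20 was at 17.1, and it exceeded Tomm20 in 9 of the 21 libraries. Gm7180 (chr7:81222362-81222874) shares 210 of its 483 stretches, or 43.5%, with Timm17a. It reached 25.8 FPKM in Oocyte Aged + LRP1high replicate 3, where Timm17a was at 39.8, and exceeded Timm17a in 5 libraries. Gm13719 (chr2:86325641-86328569) shares 299 of its 2081 stretches, or 14.4%, with Dnm1l. It reached 4.78 FPKM in Oocyte Aged replicate 2, where Dnm1l was at 28.2, and exceeded Dnm1l in 2 libraries. How StringTie divided such reads was not tested, so the levels of these 3 genes are uncertain. Shared stretches were spread over many other genes for Timm17b (9.98% of its stretches, 2581 genes), Slc25a51 (5.22%, 4589 genes) and Mfn1 (2.71%, 1978 genes). Their part in the levels of these genes was not tested either. Opa1 and Fis1 shared 0 such stretches with any other gene and Mfn2 only 1. For Dnm1l, the antisense gene Gm49521 stood at 43.4 FPKM in Oocyte Aged + Unsorted replicate 1, the library in which Dnm1l was highest at 65.7. Whether strand was used in counting is not given in the sources used here. Reads from the 183 of 5311 stretches that Dnm1l shares with Gm49521 therefore cannot be told apart. Mff overlaps 2 genes, Gm28941 on its own strand and C430014B12Rik on the other. Gm28941 was highest at 14.1 FPKM in Oocyte Aged replicate 1, where Mff was at 18.0. C430014B12Rik, with 166 stretches in common with Mff, was highest at 8.70 in Oocyte Aged + LRP1low replicate 1. There Mff was at 12.9. Their part in the Mff level was not tested.

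**Figure D3:**
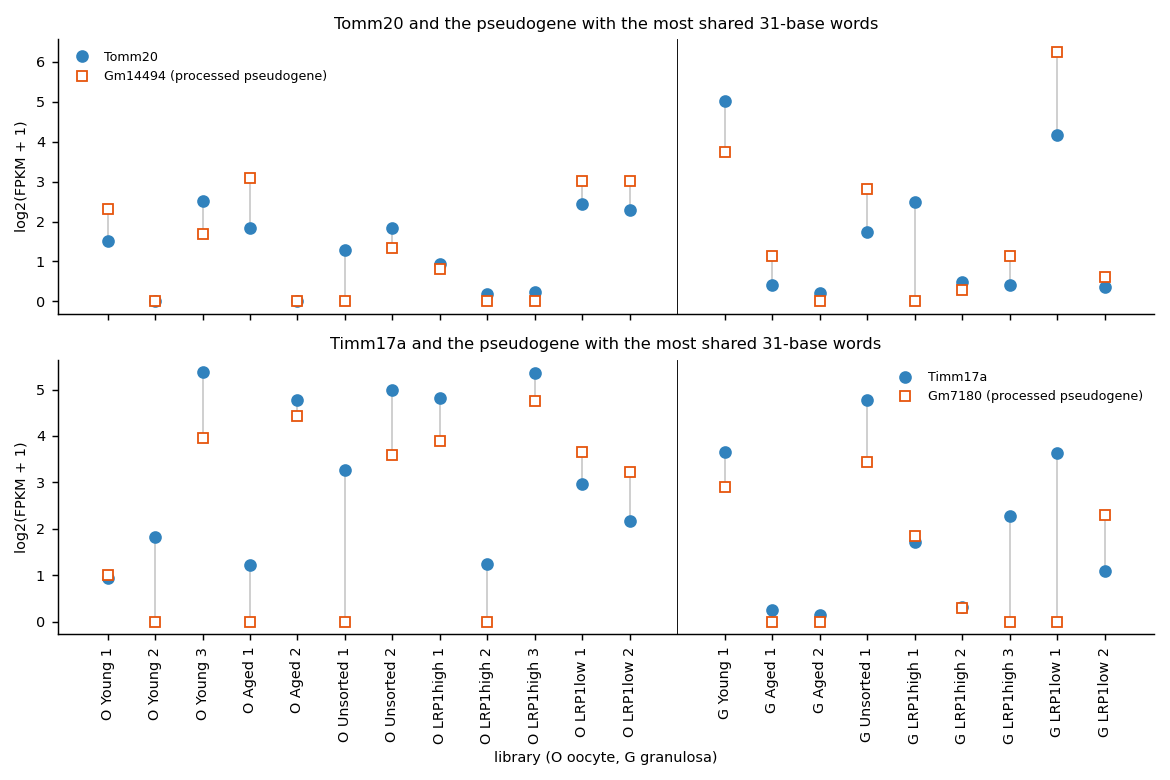
Level as log2(FPKM + 1) of Tomm20 and Timm17a (filled circles) and of the pseudogenes Gm14494 and Gm7180 (open squares) in each of the 21 libraries, with a grey line joining the pair of a library. The pseudogene is the higher in 9 libraries for Tomm20 and in 5 for Timm17a.

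Whether age alters the machinery in oocytes was asked by setting 2 Aged against 3 Young libraries. Mff had the largest difference, 2.10 higher in Aged (standard error 1.52, adjusted p = 0.542), followed by Mfn1 (1.79, standard error 1.18, adjusted p = 0.524) and Fis1 (1.67, standard error 1.17, adjusted p = 0.536). By limma 0 of the 10 were called and 0 had an unadjusted p under 0.05, beside 0.0964% and 8.65% of the 28004 genes tested. The groups did not overlap for 0 of the 10, against 11.7% of all genes. Their median difference of 1.07 was near the 0.94 of all genes. One library of each group lacked oocyte markers. Without Aged replicate 2, the only Aged library with them, calls over all genes went from 27 to 9547 while 0 of the 10 were called. A fit that leaves 1 library in a group, here and below, assumes that it varies like the other groups.

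Unsorted cells were tested with 2 Aged + Unsorted against 2 Aged oocyte libraries. Dnm1l was 2.52 higher (standard error 1.49, adjusted p = 0.436) and Fis1 2.23 higher (standard error 1.28, adjusted p = 0.436), and Slc25a51 was 1.65 lower (-1.65, standard error 1.04, adjusted p = 0.436). For these 3 the groups did not overlap, which held for 21.6% of all genes. Limma called 0 of the 10, with 0 at an unadjusted p under 0.05, beside 0% called and 8.74% at that p among all genes. The median of the 10 was 0.64, where that of all genes was -0.86. Leaving out Aged replicate 2 took the calls over all genes from 0 to 10678 and those among the 10 nowhere from 0.

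Transplanted LRP1high cells gave the one member difference against Aged oocytes that passed an unadjusted threshold. Fis1, with 3 libraries below both Aged ones, differed by -2.60 (standard error 1.17, unadjusted p = 0.0479, adjusted p = 0.370). The second gene without overlap was Slc25a51, at -1.498 (standard error 0.95, adjusted p = 0.375), and Timm17b, with its library at 35.5 FPKM, differed by 1.84 (standard error 1.22, adjusted p = 0.385). In all, 0 of 10 were called, 1 had an unadjusted p under 0.05 and 2 did not overlap, beside 0.771%, 10.9% and 16.2% of all genes. The median of the 10 was -0.28 and that of all genes -1.05. Calls over all genes went from 216 to 11409 without Aged replicate 2, to 1062 without Aged replicate 1 and to 0 without any 1 LRP1high library.

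Against Aged, LRP1low oocytes showed 3 genes without overlap, Tomm20 higher (1.45, standard error 0.91, adjusted p = 0.547), Mff lower (-1.45, standard error 1.66, adjusted p = 0.746) and Mfn1 lower (-0.80, standard error 1.29, adjusted p = 0.816). Since 36.6% of all genes did not overlap here, 3 of 10 is near the background. Again 0 were called and 0 reached an unadjusted p under 0.05 in limma, beside 3.17% and 14.1% of all genes. The median of the 10 was -0.45, below the 0.68 of all genes, of which 68.3% were higher in LRP1low. Both LRP1low libraries and 1 of the 2 Aged ones lacked oocyte markers and carried receptor genes at 2.21 to 2.76 FPKM, and the part of this in the differences was not tested. The LRP1low values of Tomm20 and Mfn1 did not exceed the 95th percentile of these receptor genes in their libraries.

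Setting LRP1high against Young oocytes asks how far treated old cells differ from young ones. Opa1 was 1.93 higher (standard error 0.91, unadjusted p = 0.0560) and Mfn2 1.85 higher (standard error 0.88, unadjusted p = 0.0589), both with an adjusted p of 1. Mfn2 was the 1 gene of 10 whose groups did not overlap, against 2.27% of all genes. Calls and unadjusted p-values under 0.05 came to 0 and 0 of 10, beside 0% and 3.17% of all genes. The median of the 10 was 0.91 and that of all genes -0.14. Aged, LRP1high and Young libraries serve in several of these comparisons, which are therefore not independent of each other.

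The direct comparison of LRP1high with LRP1low oocytes had the most calls over all genes, 26%, of which 6951 were lower and 340 higher in LRP1high. These 7291 calls went to 0 without any 1 LRP1high library or without LRP1low replicate 2, to 319 without LRP1low replicate 1, and to 0 with the replicate block or a pseudocount of 0.1. Among the 10 genes 0 were called. Tomm20 was nearest, 0.929, 0.134 and 0.174 FPKM against 4.45 and 3.85, a difference of -1.91 (standard error 0.84, unadjusted p = 0.0430, adjusted p = 0.0925). Both LRP1low values were below the 95th percentile of the receptor genes of their libraries, 5.54 and 6.10 FPKM. The Tomm20 pseudogene Gm14494 stood at 7.04 and 7.16 FPKM in LRP1low and at 0.743, 0 and 0 in LRP1high. Slc25a51 was also lower without overlap (-1.61, standard error 0.95, adjusted p = 0.186) and Timm17b higher without overlap (1.44, standard error 1.22, adjusted p = 0.352). That made 1 of 10 at an unadjusted p under 0.05 and 3 of 10 without overlap, beside 49.1% and 69.4% of all genes. All genes had a median of -1.89 and the 10 a median of 0.30. After quantile normalization, which gives all libraries the same distribution, the Tomm20 difference turned to 0.58 (adjusted p = 0.649). In the fit without that normalization 3 of 10 oocyte markers were called higher, with a median of 5.89 over the list. Of 11 granulosa and cumulus markers tested there, 4 were called lower. The receptor genes stood at medians of 2.76 and 2.35 FPKM in LRP1low and at 0 to 0.0709 in LRP1high.

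**Figure D4:**
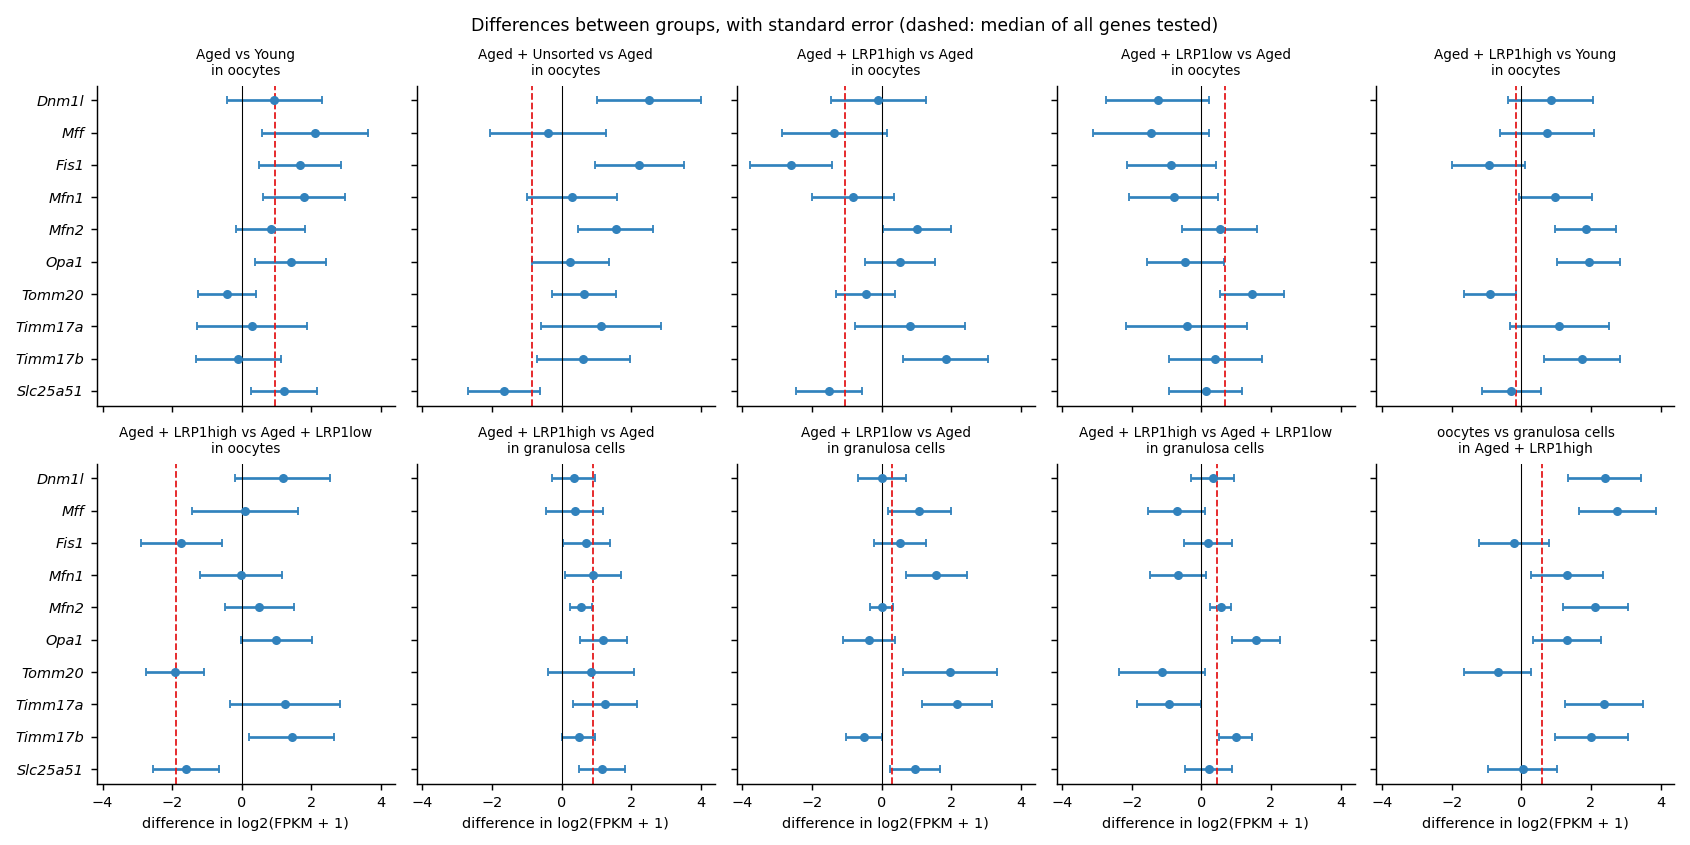
Difference of each of the 10 genes in log2(FPKM + 1), 1 panel for each of 10 comparisons, with bars of 1 standard error, a solid line at 0 and a red dashed line at the median of all genes tested. No gene was called in any panel, and the Tomm20 difference between LRP1high and LRP1low oocytes, -1.91, had the lowest adjusted p of the panels, 0.0925.

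Granulosa cells were compared among Aged, LRP1high and LRP1low, and Young and Aged + Unsorted, with 1 library each, were not compared. Both still counted in the mean FPKM of 1 that a gene needed to be tested. Mfn2, at most 0.482 FPKM in the compared libraries, passed this filter only through them, as did Dnm1l, Fis1 and Timm17b. The difference from Aged was above 0 for all 10 genes in LRP1high, and for 92.8% of all genes. The groups did not overlap for 6 of 10 (Mfn1, Mfn2, Opa1, Tomm20, Timm17a and Slc25a51), beside 51.8% of the 13002 genes tested. The differences ran from 0.34 for Dnm1l to 1.24 for Timm17a (standard error 0.92, adjusted p = 0.473). Limma gave 0 calls and 0 unadjusted p-values under 0.05 among the 10, beside 0% and 8.51% of all genes. Mfn2 was listed at 0 in both Aged libraries, so its difference has no fold. Its LRP1high values did not exceed the 95th percentile of the receptor genes of their libraries. Both Aged libraries had genes used by every cell at medians of 0.0780 and 0.203 FPKM, and the part of this in the higher levels of LRP1high was not tested.

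LRP1low against Aged granulosa cells showed Timm17a 2.17 higher (standard error 1.01, adjusted p = 0.904), Tomm20 1.96 higher (standard error 1.35, adjusted p = 0.904) and Mfn1 1.57 higher (standard error 0.88, adjusted p = 0.904). For these 3, LRP1low replicate 1 had 11.4, 17.1 and 8.03 FPKM and replicate 2 had 1.13, 0.291 and 0.717. Replicate 1 also held luteal markers such as Cyp11a1 at a sum of 5660 FPKM, against 72.7 in replicate 2, and its part in the levels was not tested. Groups did not overlap for 6 of 10 (Mfn1, Fis1, Timm17a and Slc25a51 higher, Opa1 and Timm17b lower), beside 37.5% of all genes. Fis1, Opa1 and Timm17b did not exceed the 95th percentile of the receptor genes in any Aged or LRP1low granulosa library. By limma 0 of the 10 were called and 0 had an unadjusted p under 0.05, beside 0% and 3.79%. Without that replicate 2, which leaves LRP1low with 1 library, Mfn1 differed by 2.77 (adjusted p = 0.109), the lowest adjusted p of the 10 under the alternatives to this comparison.

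Between LRP1high and LRP1low granulosa cells, Opa1 was 1.56 higher in LRP1high (standard error 0.68, adjusted p = 0.629) and Timm17b 0.99 higher (standard error 0.47, adjusted p = 0.629), both without overlap. Mfn2 was the third gene without overlap, at 0.449 to 0.482 FPKM in LRP1high and listed at 0 in LRP1low. Neither Mfn2 nor Timm17b exceeded the 95th percentile of the receptor genes in any of these libraries. The 3 of 10 without overlap compare with 23.9% of all genes. Limma called 0 of the 10 and 0 had an unadjusted p under 0.05, beside 0% called and 5.15% at that p.

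Oocytes and granulosa cells were compared within Aged + LRP1high, the only group with 3 libraries of each. Mff was 63.3, 19.8 and 1.93 FPKM in oocytes against 3.09, 0.461 and 1.10 in granulosa cells, a difference of 2.76 (standard error 1.12, unadjusted p = 0.0237, adjusted p = 0.126). Dnm1l differed by 2.39 (standard error 1.06, unadjusted p = 0.0366, adjusted p = 0.169), Timm17a by 2.37 (standard error 1.13, adjusted p = 0.206) and Mfn2 by 2.12 (standard error 0.93, unadjusted p = 0.0348, adjusted p = 0.164). Of the 10 genes, Mfn2 and Timm17b were higher in oocytes without overlap. That gave 0 of 10 called, 3 at an unadjusted p under 0.05 and 2 without overlap, beside 12.7%, 24.3% and 31.8% of the 13047 genes tested. Fis1, Slc25a51 and Tomm20 differed by -0.22, 0.04 and -0.68. With TPM in place of FPKM, Mff, Mfn2 and Dnm1l were called, at 3.93 (adjusted p = 0.0303), 3.33 (adjusted p = 0.0296) and 3.55 (adjusted p = 0.0413). Without LRP1high oocyte replicate 3, Mff and Dnm1l were called, at 3.98 (adjusted p = 0.0120) and 3.39 (adjusted p = 0.0220), and without replicate 2 Timm17a was, at 3.65 (adjusted p = 0.0413). Of the granulosa libraries, replicates 1 and 2 lacked granulosa markers, and with replicate 3 alone 0 of 10 and 0 of all genes were called, with differences of 2.91 for Mff, 2.83 for Dnm1l, 2.14 for Mfn2 and 1.53 for Timm17a. All 10 oocyte markers were called higher, with a median difference of 8.00.

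Whether a transplant shifted a gene otherwise in oocytes than in granulosa cells was tested as an interaction over all 21 libraries. For LRP1high against Aged, Fis1 gave -3.32 (standard error 1.501, unadjusted p = 0.0411, adjusted p = 0.309), from -2.60 in oocytes and 0.71 in granulosa cells, neither of them called. Slc25a51 gave -2.66 (standard error 1.27, adjusted p = 0.312). Limma called 0 of 10 and 1 had an unadjusted p under 0.05, beside 0% and 16% of the 21767 genes tested. For LRP1low against Aged, 0 of 10 were called and 0 had an unadjusted p under 0.05, beside 0% and 6.41%, with the members between -2.60 for Timm17a and 0.90 for Timm17b.

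The balance between members of a process can be read within 1 library, though the pseudocount shrinks it where levels are low. Timm17a exceeded Timm17b in 10 of 12 oocyte libraries, by a median of 1.87 on the log2(FPKM + 1) scale. The exceptions were Young replicate 1 at -0.63 and LRP1high replicate 2 at -3.95, the library in which Timm17b was at 35.5 FPKM. LRP1high replicate 3, of the same group, was at the other end with 3.45. In granulosa cells Timm17a exceeded Timm17b in 5 of 9 libraries, by a median of 0.92, which became 1.47 with a pseudocount of 0.1.

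Mfn1 and Mfn2 were closer to each other. Their difference had a median of 0.20 in oocytes, from -1.88 in LRP1high replicate 3 to 3.93 in Aged replicate 2, and Mfn1 was the higher in 7 of 12. In granulosa cells Mfn1 was the higher in 9 of 9 libraries, by a median of 0.78, but Mfn2 was listed at 0 in 4 of them. The 2 libraries with granulosa markers had a median of 0.61. With a pseudocount of 0.1 the medians over all libraries became 0.39 in oocytes and 1.502 in granulosa cells. The mean of Dnm1l, Mff and Fis1 less that of Mfn1, Mfn2 and Opa1 on the same scale had a median of 0.95 in oocytes (1.48 with a pseudocount of 0.1) and was above 0 in 9 of 12 libraries. It ran from -1.36 in LRP1high replicate 3 through -0.20 in replicate 2 to 1.27 in replicate 1 of that group, and was 1.95 and 2.56 in Aged + Unsorted, -0.17 and 3.18 in Aged, 0.71, 1.19 and 1.93 in Young, and 0.48 and 0.63 in Aged + LRP1low. Aged and LRP1high thus each held libraries on both sides of 0.

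**Figure D5:**
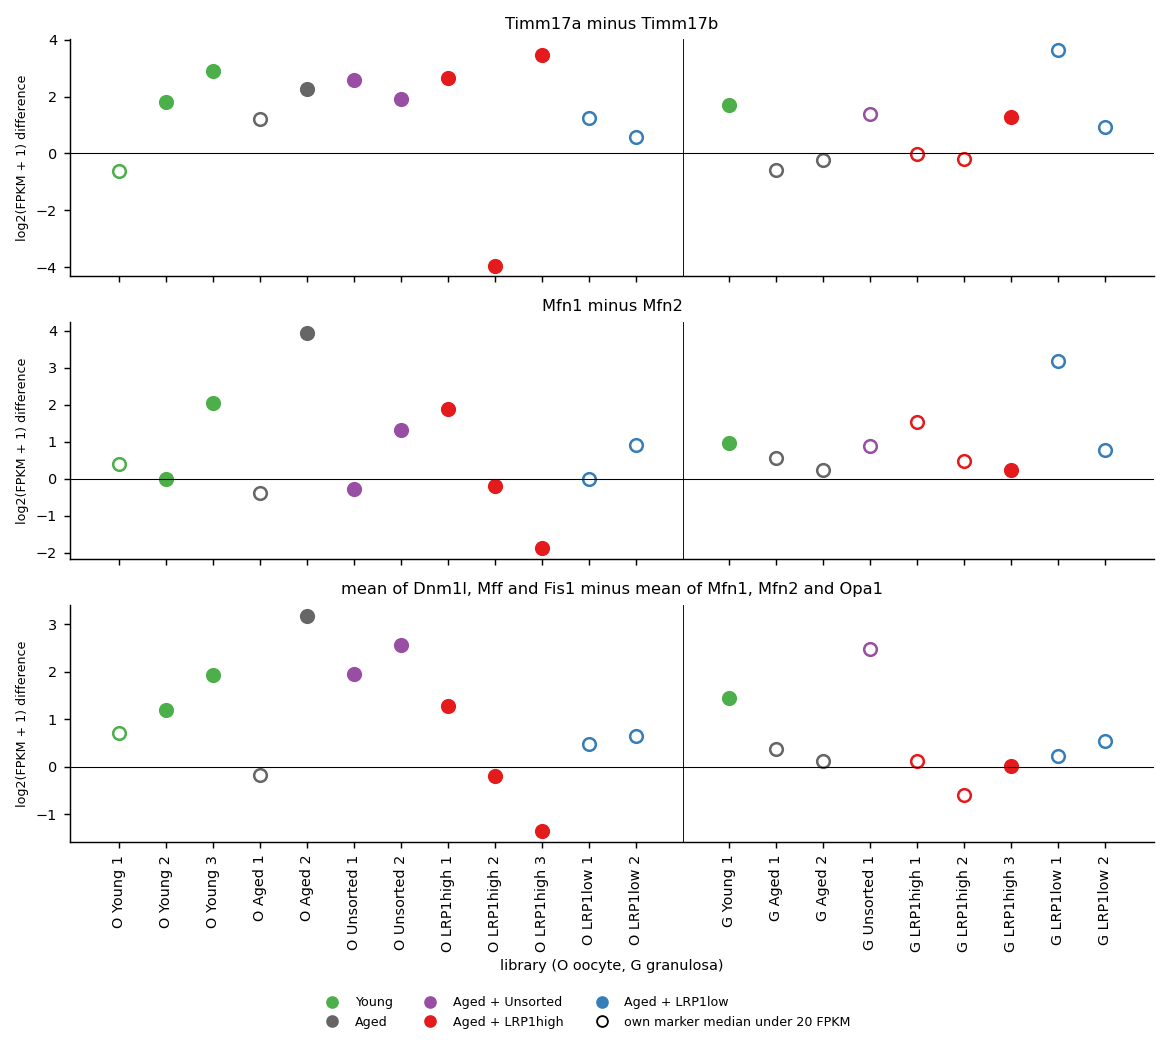
Differences in log2(FPKM + 1) within each library, with 1 point per library coloured by group, open circles for libraries whose own marker median was under 20 FPKM, and a line at 0. Timm17a lies above Timm17b in 10 of 12 oocyte libraries, with LRP1high replicate 2 far below at -3.95.

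Related genes of mitochondrial dynamics, import, transport, mitophagy and biogenesis formed 7 lists of 10 to 28 genes. Calls among them came in 4 of the 12 tests. LRP1high oocytes held 1 called gene of 116 tested against Aged, or 0.862% beside 0.771% of all genes, and this was the carrier Slc25a53, at 0, 0.156 and 0.0785 FPKM against 7.72 and 17.8 (-3.57, standard error 0.65, adjusted p = 0.0439), a call lost in 8 of 13 alternatives. Mtfp1, an inner membrane protein that promotes fission, was called higher in LRP1low than in Aged oocytes (adjusted p = 0.0422), and lost this call in 4 of 9 alternatives. Listed at 0 in Aged, it was 6.49 and 5.71 FPKM in LRP1low, where the 95th percentile of the receptor genes was 5.54 and 6.10. Mtfp1 reached the mean FPKM of 1 needed for a test only through these LRP1low libraries, so its calls are no independent support for a change. It too was 1 of 116, beside 3.17% of all genes. The same gene was called against LRP1high (adjusted p = 0.0192), where it was listed at 0 in all 3 libraries, and lost that call in 6 of 10 alternatives.

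Between LRP1high and LRP1low oocytes, 7 of 116 listed genes tested were called, 1 higher and 6 lower with Mtfp1 among them. At 6.03% this was below the 26% of all genes. Parl, the rhomboid protease of the inner membrane, was 398.3, 99.4 and 532.0 FPKM in LRP1high and 4.39 and 6.30 in LRP1low (5.47, standard error 1.76, adjusted p = 0.0451), and its call was lost in 8 of 12 alternatives. The coenzyme A carrier Slc25a42 (-3.38, adjusted p = 0.0341) and the transcription factor Gabpa (-3.07, adjusted p = 0.0286) fell most of the others, beside Tomm70a, Slc25a53 and Trak2. These 5 calls were lost in 7 to 9 of 12 alternatives, and under 1 of them the Slc25a53 difference was above 0, at 0.23. Gabpa, like Mtfp1, passed the filter on mean FPKM only through the LRP1low libraries. The lists' medians ran from -1.70 for biogenesis to 0.26 for fission, against -1.89 for all genes.

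Between the cell types in LRP1high, 13 of 105 listed genes tested were called, all of them higher in oocytes, which at 12.4% was near the 12.7% of all genes. Parl was 398.3, 99.4 and 532.0 FPKM against 5.75, 1.10 and 1.17 (6.47, standard error 1.01, adjusted p = 0.000366). The ubiquitin ligase March5 of the outer membrane was 171.4, 75.03 and 68.7 against 1.24, 0.329 and 0.732 (5.81, standard error 0.94, adjusted p = 0.000465). Timm9, a chaperone of the intermembrane space, was 193.2, 105.3 and 303.2 against 3.60, 0.639 and 6.40 (5.59, standard error 0.98, adjusted p = 0.000896). In all 3 the cell types stood apart in every library. Calls came from fission (2 of 7 tested), fusion and inner membrane shape (4 of 21), outer membrane import (2 of 8), inner membrane import (3 of 28), carriers (1 of 16) and mitophagy (1 of 12), with 0 of 14 in biogenesis. With the granulosa libraries that lacked granulosa markers left out, 1 granulosa library remained and 0 of all genes were called, and the differences were then 6.998 for Parl, 5.81 for March5 and 4.64 for Timm9.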

How the data were processed

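RNA of mouse oocytes and granulosa cells was sequenced in 21 libraries. The labels name a stranded library kit and the study's methods Smart-seq2, and it was not settled which was used. The authors aligned reads with HISAT2 2.2.1 and quantified genes with StringTie 1.3.3b, per the labels' processing notes. These name the build mm9, but 54577 of the 55335 identifiers had the coordinates of GENCODE M21 on GRCm38, which were used here. The deposited tables hold FPKM, TPM and coverage for each gene and library, all made by the authors with StringTie. No counts were used, so counting error is unknown. Coverage, the deposited mean read depth of a gene, served to estimate the depth of a library from the FPKM at a coverage of 1.

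Rows of 1 identifier (4 to 21 repeated identifiers per library) were summed. Genes whose mean FPKM reached 1 were tested on log2(FPKM + 1) with limma 3.58.1 in R 4.3.3, over all groups of a cell type, over the 6 LRP1high libraries, or over all 21 for interactions, after the study's criteria (fold over 1.5, adjusted p under 0.05). All 10 genes passed the filter in each test, in granulosa cells with the Young and Aged + Unsorted libraries counted. The script was tested on simulated data, drawn around the mean of each gene with its spread. Of 100 genes shifted by 3 on the log2 scale, 3 to 17 were called in oocyte comparisons, 31 in each granulosa comparison and 2 between cell types. Of 100 shifted by 6, the calls were 44 to 77, 57 to 72 and 54. A gene that was not called may therefore still differ. Named were all 10 genes, up to 3 called genes per direction and comparison from the 7 lists, and the 5 genes most like the mean of the 10. The members and lists were chosen with earlier results of these data known. The fits did not pair libraries by the replicate numbers of the labels, except in the replicate block, and whether these numbers pair them was not settled. Alternatives were a pseudocount of 0.1, no filter, TPM, quantile normalization, a trended robust fit, the 2 groups alone, the replicate block, leaving out each library and, chosen after seeing the data, leaving out libraries with a median under 20 FPKM for the markers of their own cell type. Gene copies were found as shared stretches of 31 bases of GENCODE transcripts.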

Additional observations from a re-analysis of the deposited data

Results flagged for a closer look

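The 2 granulosa cell libraries that stood alone in their groups, and so entered no comparison of their own, had the highest summed FPKM of the 10 genes among the granulosa libraries. The sum was 149.6 in Granulosa Young replicate 1 and 200.7 in Granulosa Aged + Unsorted replicate 1, against 4.39 and 2.196 in Granulosa Aged. The Young library had a median of 74.9 FPKM for granulosa and cumulus markers and 4.36 for oocyte markers. The Aged + Unsorted library had 1.33 and 799.7. Over 7030 genes above 5 FPKM in both, the latter differed from Oocyte Aged + Unsorted replicate 2 by a median log2 ratio of -0.26 with an interquartile range of 0.28, where the pair with the next highest correlation had an interquartile range of 0.84. Neither sum was tested. No group held enough libraries for a check of single outlying libraries.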

How the results depend on the processing

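Limma called 0 members in each of the 12 comparisons and interactions, and 0 in 149 of 153 fits under the alternatives. In 85 of the 153, 0 of all genes were called, so the count of members says little about stability. The exceptions were 1 (Tomm20, adjusted p = 0.00676) for LRP1high against LRP1low oocytes with the 2 groups alone, where 24262 genes were called in place of 7291, 3 for oocytes against granulosa cells with TPM, and 0 to 2 there when single libraries were left out. The changes of 2 genes between LRP1high and LRP1low oocytes reversed under quantile normalization, that of Tomm20 to 0.58 and that of Slc25a53 to 0.23, and the cause was not tested. Of 1512 changes of members under an alternative, 128 had the other sign. Calls over all genes moved far more: 0 to 9547 for Aged against Young, 0 to 10678 for Unsorted, 0 to 11409 for LRP1high and 0 to 11806 for LRP1low against Aged, 0 to 208 for LRP1high against Young, 0 to 24262 for LRP1high against LRP1low, up to 48, 766 and 498 in granulosa cells, 0 to 2839 between cell types, and up to 7800 and 7287 for the interactions. With the replicate block 0 members were called in every comparison. Deviations of libraries with the same number correlated at -0.44 to 0.44 over 21 oocyte pairs and -0.08 to 0.26 over 6 granulosa pairs, and 5 of 12 oocyte and 3 of 7 granulosa libraries were closest to their own number. In groups of 2 libraries the deviations mirror each other, so these values are not independent and cannot exclude pairing. Leaving out libraries without their own markers could not be fitted in 7 of the 12, because a group then held no library.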
